A study of Mus musculus with 15 samples.

Results

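Dendritic cells present antigen to T cells, and 9 genes that mark these cells or direct their development were followed here through brain myeloid cells of mice fed a chow or a western diet. The genes were Flt3, Zbtb46, Xcr1, Cd209a, Batf3, Clec9a, Itgae, Cd83 and Irf4. They were taken by name from a table of 38924 genes, each name matched 1 row, and all 9 were among the 14967 genes that passed a filter of at least 1 cpm, the count of a gene scaled to the size of its library, in at least 2 libraries. RNA was sequenced from 15 libraries of CD11b+ cells sorted from perfused brains of 12-month-old wild-type male C57BL/6J mice. The cells were separated by the surface level of CD45, the pan-leukocyte phosphatase, into CD11b+CD45hi cells and CD11b+CD45lo cells, and the mice were kept on a chow diet (CD) or a western diet (WD). There were 4 CD-fed CD45hi, 4 CD-fed CD45lo, 3 WD-fed CD45hi and 4 WD-fed CD45lo libraries. The gate also required cells to lack CD3e, so T cells were sorted away, and none of the 9 proteins was used to sort. CD11b is itself carried by cDC2 cells and is low or absent on most cDC1 and plasmacytoid dendritic cells, so the gate selects among the dendritic subsets described here. The labels do not say whether each library came from a separate mouse, so the p-values below measure the spread between these libraries.

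Conventional dendritic cells grow under FLT3 ligand, which acts through the receptor tyrosine kinase FLT3, and they carry the zinc finger factor ZBTB46. One branch, called cDC1, needs the AP-1 factor BATF3 and carries the chemokine receptor XCR1, the dead-cell receptor CLEC9A and, in many tissues, the integrin chain CD103 encoded by Itgae. The other branch, cDC2, depends more on the interferon regulatory factor IRF4 and, with monocyte-derived dendritic cells, can carry the lectin CD209a, while CD83 appears at the surface of dendritic cells as they mature. In the brain such cells are known mainly from the meninges and choroid plexus, and Cd83, Irf4 and Flt3 are not restricted to dendritic cells.

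RefSeq promoter sequence (assembly GRCm38.p6) was matched for 7 of the 9 genes, all but Cd83 and Itgae, and the 250 bases before each listed start were searched on both strands for 7 motifs. The sequences below are shown because Cd209a had the strongest difference between CD45hi and CD45lo cells with a call, Irf4 had CD45hi libraries that separated by diet, and the Zbtb46 window held the letters read by BATF and IRF proteins together. Capitals mark the motif letters found, and each sequence is written 5′ to 3′ along the gene's own strand.
Cd209a, chr8:3748985-3749234, minus strand: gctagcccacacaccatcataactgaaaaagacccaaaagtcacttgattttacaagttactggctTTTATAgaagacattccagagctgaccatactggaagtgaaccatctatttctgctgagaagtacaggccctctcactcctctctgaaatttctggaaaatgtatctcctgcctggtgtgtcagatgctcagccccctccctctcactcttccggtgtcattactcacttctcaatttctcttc
Irf4, chr13:30748983-30749232, plus strand: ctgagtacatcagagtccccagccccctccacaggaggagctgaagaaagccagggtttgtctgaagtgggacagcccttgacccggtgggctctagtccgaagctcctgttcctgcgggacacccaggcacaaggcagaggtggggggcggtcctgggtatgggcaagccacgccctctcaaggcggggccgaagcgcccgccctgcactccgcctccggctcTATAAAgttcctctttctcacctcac
Zbtb46, chr2:181424389-181424638, minus strand: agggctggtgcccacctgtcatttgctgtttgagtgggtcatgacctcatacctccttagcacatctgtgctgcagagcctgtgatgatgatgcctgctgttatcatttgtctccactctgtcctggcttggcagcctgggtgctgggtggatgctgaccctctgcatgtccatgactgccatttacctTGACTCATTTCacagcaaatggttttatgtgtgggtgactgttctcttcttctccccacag
The Zbtb46 window carried an AP-1-IRF composite, searched as TGANTCANNNNGAAA or GAAATGANTCA, on the opposite strand from 61 to 51 bases before the listed start. Within 32851 promoters this composite was found in 0.198%, and the AP-1 letters TGANTCA that it contains were found in 6.75%. The window lies wholly inside the Zbtb46 gene of GENCODE M21, outside its exons, and its start is 35038 bases downstream of the gene's outermost start, so it is intronic to the longest form. Irf4 had TATAAA from 26 to 21 bases before its start, and Cd209a, Clec9a and Xcr1 had the same letters on the opposite strand more than 150 bases away, against 12.4% of promoters with TATAAA on either strand. None of the 7 windows held GAGGAAGT, the PU.1 core, GAAANNGAAA, the interferon-stimulated element, GGAANNGAAA, the ETS-IRF composite, or GGGANNTTCC, an NF-kB form. These were found in 2.44%, 2.98%, 2.3% and 1.21% of promoters, respectively.

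Depth was even across the series, between 11951412 and 17912272 expected counts per library, and 3 counts corresponded to 0.156 to 0.282 cpm. In a principal component analysis CD-fed CD45hi replicate 4 and WD-fed CD45hi replicate 1 lay apart from all other libraries, with second-component scores of 93.0 and -134.7 against -4.50 to 21.5 elsewhere, and results that rest on them are given with and without them. Markers of other cells moved with the CD45 level. The summed level of 7 border-associated macrophage markers was 874 to 2840 cpm in CD45hi and 73.1 to 250 cpm in CD45lo libraries, that of 7 monocyte markers 485 to 1050 against 28.2 to 118 cpm, and that of 8 neutrophil markers 1360 to 3440 against 569 to 851 cpm. Microglial markers moved the other way, 7230 to 9050 cpm in CD45hi and 15400 to 19700 cpm in CD45lo libraries. The part of these cell types in the differences below was not tested, and in bulk RNA fewer cells of a type and less RNA per cell cannot be told apart.

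**Figure D1:**
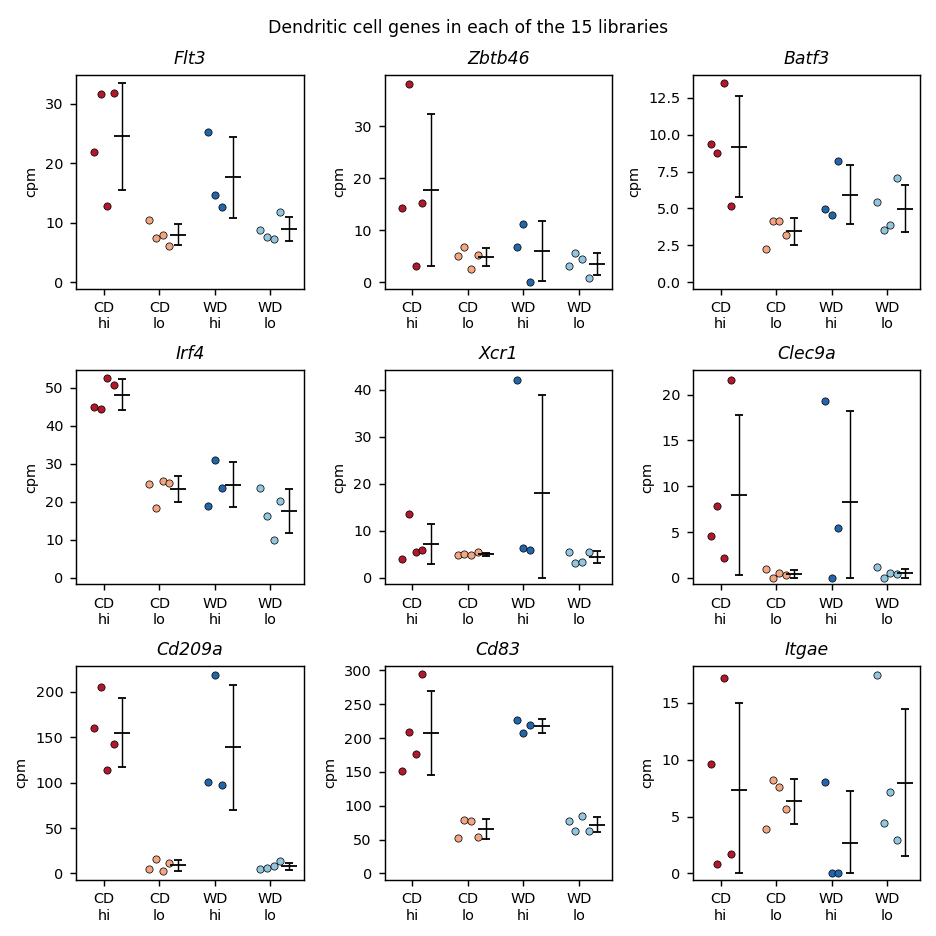
Level of each of the 9 genes in cpm, scaled by the trimmed mean of M-values, in each library (points), with the group mean and SD beside the points. Columns are CD-fed CD45hi, CD-fed CD45lo, WD-fed CD45hi and WD-fed CD45lo cells, and each panel has its own axis from 0. Cd209a and Cd83 separate by CD45 level in all libraries, and Xcr1 has a single high library at 42.1 cpm.

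CD11b+CD45hi and CD11b+CD45lo cells were compared within each diet to ask which genes mark the CD45hi cells. Cd209a and Cd83 rose in CD45hi cells on both diets, and no member fell. Under edgeR's test against a 1.5-fold change (glmTreat, FDR below 0.05 over all tested genes), 2 of 9 members were called higher in CD-fed and 2 of 9 in WD-fed mice, where 3.39% and 4.01% of all tested genes were called higher. Fitted log2 differences were positive for 9 of 9 genes in CD-fed and 8 of 9 in WD-fed mice, with a median of 1.62 and 0.98 beside 0.0357 and 0 over all genes. Every CD45hi library lay above every CD45lo library for 6 of 9 genes in CD-fed mice (Flt3, Cd209a, Batf3, Clec9a, Cd83 and Irf4), where 8.26% of all tested genes did so. In WD-fed mice it held for 4 of 9 (Flt3, Xcr1, Cd209a and Cd83) with 10% of all tested genes.

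**Figure D2:**
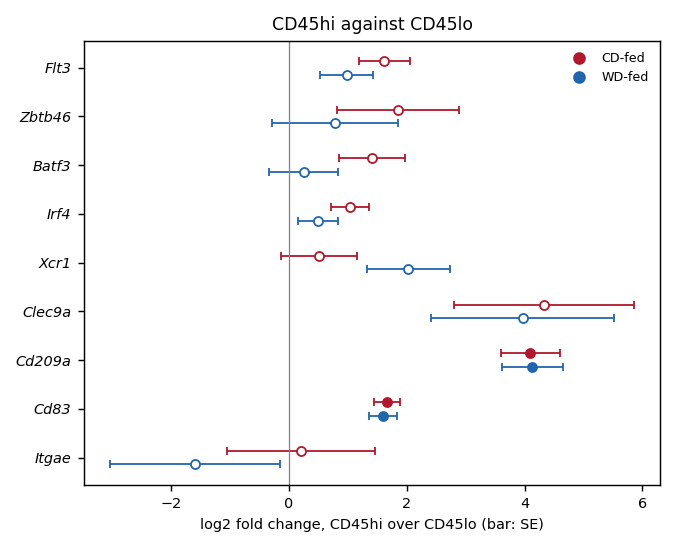
Log2 fold change of each gene in CD45hi over CD45lo cells in CD-fed (red) and WD-fed (blue) mice, with bars of 1 SE. Filled points passed glmTreat at FDR below 0.05, which only Cd209a and Cd83 did. Clec9a has a difference as large as that of Cd209a with a far wider bar.

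On a scale per transcript length, the TPM that RSEM gives, Cd209a and Cd83 stood well above the others in CD45hi cells. In CD-fed CD45hi cells the mean level was 163 TPM ± 48.3 (SD, n = 4) for Cd209a and 143 ± 36.3 for Cd83, which did not differ beyond their spread. Batf3 followed at 23.3 ± 9.08 and Irf4 at 14.6 ± 1.05 TPM. Below them came Clec9a at 7.92 ± 8.77, Flt3 at 7.43 ± 3.00, Zbtb46 at 5.24 ± 4.25, Itgae at 2.76 ± 2.91 and Xcr1 at 2.37 ± 1.52 TPM, neighbours that overlapped throughout. In CD-fed CD45lo cells Cd83 led alone at 62.9 TPM ± 12.8 (SD, n = 4), with Cd209a at 12.9 ± 8.51 and Batf3 at 12.0 ± 3.06 next to each other. Clec9a was the lowest there, at 0.385 ± 0.269 TPM.

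Cd209a, a mouse relative of the human pathogen receptor DC-SIGN, had the largest called difference of the 9. Its levels were 160, 205, 114 and 142 cpm in the 4 CD-fed CD45hi libraries against 5.24, 16.4, 2.95 and 11.5 cpm in the 4 CD-fed CD45lo libraries. In WD-fed mice they were 101, 218 and 96.8 cpm against 4.72, 5.71, 8.13 and 13.2 cpm. The lowest CD45hi library was thus several times the highest CD45lo library. The log2 fold change was 4.10 (SE 0.504), a 17.1-fold difference, in CD-fed mice (edgeR glmTreat, FDR 9.79e-05) and 4.13 (SE 0.520), or 17.5-fold, in WD-fed mice (FDR 0.000122). The call held in each alternative fit and without any single library. Among 1716 stretches of 75 bases in its transcripts none occurred in another gene, so an exact match of that length belongs to Cd209a alone. The gene lies at chr8:3743397-3748984 on the minus strand.

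Other genes of the CD209 family were called as well. Of its 7 genes, Cd209a included, 6 were tested, and 3 rose in CD-fed (Cd209a, Cd209f and Cd209g) and 4 in WD-fed CD45hi cells (the same with Cd209b, a lectin known from marginal zone macrophages). Cd209f averaged 33.1 cpm ± 11.7 (SD, n = 4) in CD-fed CD45hi and 3.14 ± 1.51 in CD45lo cells, a log2 difference of 3.40 (FDR 0.000979). Cd209g averaged 18.8 cpm ± 10.3 (SD, n = 4) and 0.657 ± 0.817 (log2 4.82, FDR 0.00162), and 50.9 ± 12.5 (n = 3) against 0.257 ± 0.104 in WD-fed mice (log2 7.56, FDR 8.31e-05). Cd209b had a log2 difference of 3.65 in WD-fed mice (FDR 0.0431) and of 1.90 in CD-fed mice (FDR 0.397). Cd209c (FDR 0.121 and 0.443) and Cd209d (FDR 0.279 and 0.689) were not called on either diet.

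Cd83, an immunoglobulin-family protein that stabilises MHC class II at the surface, was plentiful in both populations. The CD-fed CD45hi libraries had 151, 209, 177 and 295 cpm and the CD45lo libraries 52.2, 79.5, 78.1 and 54.0 cpm. WD-fed CD45hi libraries had 227, 207 and 219 cpm and CD45lo libraries 78.0, 62.3, 84.6 and 63.3 cpm. There was no overlap on either diet, and the highest value came from CD-fed replicate 4, a library that lay apart. The log2 fold change was 1.66 (SE 0.221; 3.15-fold; edgeR glmTreat, FDR 0.00104) in CD-fed and 1.60 (SE 0.233; 3.02-fold; FDR 0.00260) in WD-fed mice. Without any one of the libraries the FDR stayed between 0.000762 and 0.00691 in CD-fed and between 0.000914 and 0.0112 in WD-fed mice. Immediate early genes, which respond within minutes to handling of cells, were also higher in CD45hi libraries, with 5 of 16 called on each diet. Nr4a1 had the largest difference of the 16, with 176 cpm ± 84.0 (SD, n = 4) against 9.76 ± 3.56 in CD-fed mice (log2 4.17). The median log2 difference of the list was 1.12 on each diet. Fos (log2 1.10) and Jun (log2 0.26) were not called in CD-fed mice. The part of such a response in Cd83 was not tested. Cd83 lies at chr13:43784775-43803132 on the plus strand.

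Flt3, the receptor for the dendritic cell growth factor, had 21.8, 31.6, 12.9 and 31.7 cpm in CD-fed CD45hi and 10.5, 7.42, 7.87 and 6.18 cpm in CD-fed CD45lo libraries. In WD-fed mice it had 25.3, 14.7 and 12.7 cpm against 8.79, 7.64, 7.36 and 11.8 cpm. The groups did not overlap on either diet, although WD-fed CD45hi replicate 3 lay close to the highest CD45lo library. The log2 difference was 1.62 (SE 0.430) with an FDR of 0.0902 by edgeR glmTreat in CD-fed mice and 0.98 (SE 0.451) with an FDR of 0.388 in WD-fed mice. The CD-fed difference passed the threshold without CD-fed CD45hi replicate 3 (FDR 0.0414), with DESeq2 (adjusted p 0.000403), with the newer edgeR quasi-likelihood method (FDR 0.0349) and with the fold limit applied after the test (FDR 0.0267). Flt3 lies at chr5:147330741-147400489 on the minus strand. Its ligand gene Flt3l was low throughout, 9.48 cpm ± 4.68 (SD, n = 4) in CD-fed CD45hi and 4.62 ± 1.79 in CD45lo cells, and was not called (log2 1.03, FDR 0.620).

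The genes whose level followed Flt3 most closely over the 15 libraries, among 10147 genes with a mean of at least 5 cpm in CD45hi cells, were Tle1 (Pearson r 0.960), Inpp4a (0.941), Slc2a3 (0.931), Shisa5 (0.926) and Jhdm1d (0.911). These correlations include the difference between CD45hi and CD45lo cells. Over the 7 CD45hi libraries alone the closest were Rps16 (0.996), Cdc42se1 (0.969), Camk2n1 (0.968), 4930512M02Rik (0.966) and Zzef1 (0.965), so no gene was in both sets of 5. They are given as a description of shared libraries, without a test.

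Among the transcription factors, Irf4 had the tightest CD-fed groups. CD-fed CD45hi libraries had 44.8, 44.5, 52.5 and 50.8 cpm and CD-fed CD45lo libraries 24.7, 18.3, 25.4 and 25.0 cpm, with no overlap. The log2 difference was 1.04 (SE 0.318), 2.06-fold, and did not pass the test against a 1.5-fold change (edgeR glmTreat, FDR 0.246). DESeq2 called it (adjusted p 0.00238). In WD-fed mice the values were 19.0, 30.9 and 23.5 cpm in CD45hi and 23.5, 16.3, 10 and 20.1 cpm in CD45lo libraries, which overlapped (log2 0.49, SE 0.339, FDR 0.763). Irf4 lies at chr13:30749226-30766976 on the plus strand.

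Batf3 and Zbtb46 were low and variable. Batf3, the factor cDC1 cells need, had 9.37, 8.78, 13.5 and 5.15 cpm in CD-fed CD45hi and 2.24, 4.15, 4.18 and 3.23 cpm in CD45lo libraries. These did not overlap, but the log2 difference of 1.41 (SE 0.560) had an FDR of 0.322 by edgeR glmTreat and an adjusted p of 0.0253 by DESeq2. In WD-fed mice its values of 4.99, 4.56 and 8.20 cpm overlapped the 5.44, 3.56, 3.90 and 7.05 cpm of CD45lo cells (log2 0.25, SE 0.592). Zbtb46, which marks the conventional lineage and is also made by endothelial cells, had 14.2, 38.0, 3.17 and 15.3 cpm in CD-fed and 6.87, 11.3 and 0 cpm in WD-fed CD45hi libraries. Its CD45lo libraries held 2.64 to 6.75 cpm in CD-fed and 0.758 to 5.64 cpm in WD-fed mice, so the populations overlapped on both diets. The log2 differences were 1.85 (SE 1.03, FDR 0.545) and 0.78 (SE 1.07, FDR 0.863). Batf3 lies at chr1:191097847-191108945 on the plus strand and Zbtb46 at chr2:181387762-181459426 on the minus strand.

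Both cDC1 receptors varied widely among CD45hi libraries. Clec9a, which binds actin exposed on dead cells, had 4.52, 7.87, 2.2 and 21.6 cpm in CD-fed CD45hi and 1.00, 0, 0.492 and 0.284 cpm in CD45lo libraries. In WD-fed mice it had 19.3, 0 and 5.44 cpm in CD45hi against 1.18, 0, 0.494 and 0.379 cpm in CD45lo libraries. The 2 highest values were those of the libraries that lay apart, and WD-fed CD45hi replicate 2 was at 0, where 3 counts would be 0.201 cpm. The log2 differences were 4.33 (SE 1.53, FDR 0.163) in CD-fed and 3.97 (SE 1.55, FDR 0.186) in WD-fed mice by edgeR glmTreat, and DESeq2 gave adjusted p-values of 0.0113 and 0.0333. The newer edgeR method also called the CD-fed difference (FDR 0.0192). They were 3.44 without CD-fed replicate 4 and 2.38 without WD-fed replicate 1. Of the exon bases of Clec9a, 5.59% are shared with Clec1b on the same strand and 3.23% of its 75-base stretches also occur there, so a small part of its count is uncertain. Clec9a lies at chr6:129408862-129424763 on the plus strand.

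Xcr1, the receptor for the chemokine XCL1, had 4.06, 13.5, 5.45 and 5.99 cpm in CD-fed CD45hi and 4.77, 5.08, 4.86 and 5.50 cpm in CD45lo libraries. WD-fed CD45hi libraries had 42.1, 6.31 and 5.98 cpm and CD45lo libraries 5.57, 3.26, 3.46 and 5.46 cpm. Replicate 1 of the WD-fed CD45hi libraries decided the WD difference, which was 2.03 on the log2 scale (SE 0.698, FDR 0.157, edgeR glmTreat) with it and 0.47 (FDR 0.834) without it. In CD-fed mice the difference was 0.52 (SE 0.645, FDR 0.959). Its expected counts were fractional in 15 of 15 libraries, which arises when reads also align to other transcripts, and 0.411% of its 75-base stretches occur in 23 other genes. How far such reads contribute to the even values near 5 cpm in CD45lo libraries was not tested. Flt3 counts were also fractional in 15 of 15 libraries, although none of its 75-base stretches occurred in another gene of GENCODE M21. Xcr1 lies at chr9:123852315-123862029 on the minus strand, and Xcl1 did not pass the filter on low values.

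Itgae, which encodes the alpha chain of CD103, was the only member with a negative CD45hi difference on either diet. It had 9.63, 0.828, 17.2 and 1.74 cpm in CD-fed CD45hi and 3.88, 8.20, 7.62 and 5.67 cpm in CD45lo libraries. In WD-fed mice it had 8, 0 and 0 cpm in CD45hi and 17.4, 4.45, 7.19 and 2.95 cpm in CD45lo libraries. The fitted differences were 0.21 (SE 1.26) and -1.59 (SE 1.44), with FDRs of 1 and 0.701 by edgeR glmTreat. Without WD-fed CD45hi replicate 1 both remaining WD libraries were at 0, and Itgae was then called lower in CD45hi cells (FDR 0.00909). Its integrin partner Itgb7 averaged 14.3 cpm ± 5.77 (SD, n = 4) in CD-fed CD45hi and 1.01 ± 0.473 in CD45lo cells (log2 3.81, FDR 0.0555), and was not called in WD-fed mice either (log2 3.10, FDR 0.119). Itgae lies at chr11:73090583-73147446 on the plus strand, and the gene Haspin sits on the opposite strand within it without sharing exon bases.

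The wider dendritic cell programme was read from lists chosen for this tissue. Of 22 lineage regulators and growth factor receptors, 6 rose and 1 fell in CD-fed and 7 rose in WD-fed CD45hi cells. Itgax, which encodes CD11c, averaged 77.0 cpm ± 34.8 (SD, n = 4) against 11.1 ± 3.12 in CD-fed mice (log2 2.80, FDR 0.00136) and 134 ± 60.4 (n = 3) against 13.1 ± 5.56 in WD-fed mice (log2 3.35, FDR 0.000359). The study also counts Itgax among the genes of disease-associated microglia. Bcl6, a repressor needed by dendritic cell subsets, had log2 differences of 1.61 and 1.69 (FDR 0.0169 and 0.0155). Csf2ra, the receptor chain for GM-CSF, rose in CD-fed mice (log2 1.89, FDR 0.00761) and had a log2 difference of 1.29 in WD-fed mice (FDR 0.109). Id2, an inhibitor of E proteins, rose in WD-fed mice (log2 1.72, FDR 0.0291). Irf8, the factor cDC1 cells need along with Batf3, had log2 differences of -0.35 (FDR 0.993) and -0.21 (FDR 0.975).

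**Figure D3:**
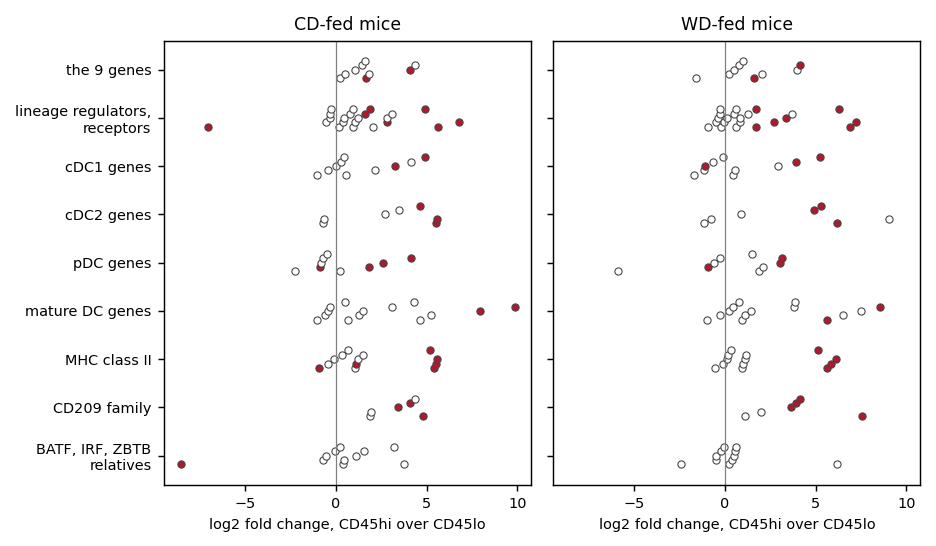
Log2 fold change in CD45hi over CD45lo cells of every tested gene of the dendritic cell lists, in CD-fed and WD-fed mice. Each point is a gene, and filled points passed glmTreat at FDR below 0.05. The MHC class II and CD209 lists hold their called genes mostly to the right of 0, and most points of the relatives of BATF, IRF and ZBTB genes are open.

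Genes of both conventional subsets were among those called. Of 7 tested cDC2 genes 3 rose on each diet, and they were the lectins Mgl2 (98.7 cpm ± 31.4, SD, n = 4, against 2.17 ± 1.54 in CD-fed mice, log2 5.50, FDR 3.41e-05) and Clec10a (log2 4.62, FDR 9.67e-05) and the coreceptor Cd4 (log2 5.56, FDR 0.0110). Mgl2 and Clec10a are also made by border-associated macrophages, and the Cd4 libraries overlapped in WD-fed mice. Sirpa and Tnfrsf21, the cDC2 genes of highest mean level, were not called. For both, every CD45hi library lay below every CD45lo library on each diet. In CD-fed mice the cDC2 genes summed to 1100 to 1320 cpm in CD45hi and 1590 to 1880 cpm in CD45lo libraries. Sirpa averaged 893 and 1430 cpm of these sums. In WD-fed mice the sums were 947 to 1110 against 1520 to 1770 cpm. Of 10 tested cDC1 genes, Cd24a and Cd36 rose on both diets, with log2 differences of 3.28 and 4.92 in CD-fed mice (FDR 0.0209 and 1.61e-05), and neither is restricted to cDC1 cells. Tlr3, a sensor of double-stranded RNA, fell in WD-fed CD45hi cells by 1.10 on the log2 scale (FDR 0.0440), with 105 cpm ± 12.0 (SD, n = 3) against 226 ± 19.3 (n = 4). Whether the lists differ from each other was not tested.

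Of 9 tested plasmacytoid dendritic cell genes, Runx2, Irf7 and Bst2 rose in CD-fed CD45hi cells and Siglech fell on both diets. Siglech, which microglia also carry, averaged 386 cpm ± 40.3 (SD, n = 4) in CD-fed CD45hi and 717 ± 43.0 in CD45lo cells (log2 -0.90, FDR 0.0370). Of 14 tested genes of mature dendritic cells, the chemokine genes Ccl22 and Ccl17 rose on both diets. Ccl22 averaged 7.76 cpm ± 7.92 (SD, n = 4) in CD-fed CD45hi libraries and 0 in the 4 CD45lo libraries (FDR 0.00292). Ccr7, the receptor that takes mature cells to lymph nodes, had CD45hi means of 0.207 (CD) and 1.52 cpm (WD) and was not called (FDR 0.335 and 0.115).

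Of 13 genes of antigen processing for MHC class II, 5 rose and 1 fell in CD-fed and 4 rose in WD-fed CD45hi cells. H2-Aa averaged 2370 cpm ± 533 (SD, n = 4) against 55.8 ± 24.1 in CD-fed mice (log2 5.41, FDR 4.35e-08), H2-Ab1 had a log2 difference of 5.49 (FDR 1.28e-08) and H2-Eb1 one of 5.57 (FDR 9.53e-08). Markers of border-associated macrophages and monocytes rose in the same cells, and the part of those cell types in these MHC class II differences was not tested. Lgmn, a lysosomal protease that microglia also express, fell by 0.94 on the log2 scale in CD-fed mice (FDR 0.0268). None of the 4 tested ligands and partners was called.

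Markers of lymphocytes were examined beside these genes. Of 13 T cell markers 4 passed the filter on low values and none was called, with a summed level of 1.95 to 11.9 cpm in CD45hi and 1.04 to 13.3 cpm in CD45lo libraries. The genes for the CD3 chains did not pass the filter, and the highest that did, Cd247 and Cd8b1, averaged 3.04 and 0.787 cpm over all libraries. Of 8 tested NK cell markers 2 rose in CD-fed and 3 in WD-fed CD45hi cells, with a summed level of 20.4 to 193 cpm against 0.852 to 6.01 cpm. The summed level of the B cell markers was 10 to 34.1 cpm in CD45hi and 3.78 to 15.3 cpm in CD45lo libraries. Flt3, Itgae and Irf4 are also made by some lymphocytes, and the part of lymphocytes in their levels was not tested. Of 9 markers of other brain cells Aldh1l1 fell in CD-fed mice, and all 7 border-associated macrophage markers rose on both diets. Of 7 tested monocyte markers 6 and 5 rose in CD-fed and WD-fed mice, 6 of 8 neutrophil markers rose on each diet, and 9 and 6 of 9 microglial markers fell. Of the 2 sort markers, Ptprc, which encodes CD45, rose on both diets (log2 1.15 and 1.56) and Itgam, which encodes CD11b, was not called.

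The diets were then compared within each population, to ask whether a western diet altered these genes. No member was called in CD45hi or in CD45lo cells. In CD45hi cells 0 of 9 were called (edgeR glmQLFTest, FDR below 0.05) where 0.254% of all tested genes were. An unadjusted p under 0.05 was found for 1 of 9, and for 2628 of all 14967 tested genes. The fitted WD differences of the 9 genes had a median of -0.48 on the log2 scale beside -0.019 over all genes, with 7 of 9 negative. In CD45lo cells 0 of 9 were called and 0% of all genes, with 123 genes at an unadjusted p under 0.05 and 4 genes called by DESeq2. The median there was 0.13 beside 0.00424 over all genes.

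Irf4 was the member that differed most clearly by diet. Its 3 WD-fed CD45hi libraries, at 19.0 to 30.9 cpm, lay below all 4 CD-fed CD45hi libraries, at 44.5 to 52.5 cpm. It was the 1 gene of 9 with every WD library below every CD library, where 3.19% of all tested genes were so ordered. The log2 difference was -0.98 (SE 0.348, 95% interval -1.71 to -0.24), with an unadjusted p of 0.0123 and an FDR of 0.166 in the edgeR fit, and DESeq2 called it (adjusted p 0.0328). Of all 14967 tested genes, 2628 had an unadjusted p under 0.05 in the edgeR fit. DESeq2 called 1003 genes in this comparison, where the edgeR fit called 38. Leaving out single libraries kept the Irf4 difference between -1.18 and -0.82. In CD45lo cells the difference was -0.42 (SE 0.316), and WD and CD libraries overlapped. Among its relatives Irf1 averaged 79.0 cpm in the CD45hi cells of CD-fed mice and 25.5 cpm in those of WD-fed mice (log2 -1.63, FDR 0.124), and the myeloid factor Spi1 81.7 ± 25.8 (SD, n = 3) against 173 ± 86.9 cpm (n = 4; log2 -1.09, FDR 0.174). Summed neutrophil markers reached 1360 to 1790 cpm in WD-fed and 1580 to 3440 cpm in CD-fed CD45hi libraries, and their part in the Irf4 values was not tested.

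**Figure D4:**
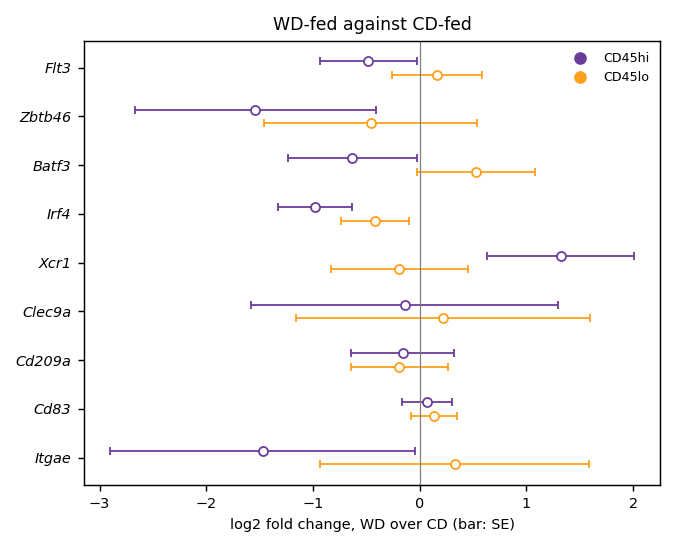
Log2 fold change of each gene in WD-fed over CD-fed mice within CD45hi (purple) and CD45lo (orange) cells, with bars of 1 SE. All points are open because none passed at FDR below 0.05. Irf4 in CD45hi cells lies at -0.98. Its bar of 1 SE stays clear of 0, as do those of Flt3, Zbtb46, Xcr1, Batf3 and Itgae in CD45hi cells. Cd83 lies next to 0 in both populations.

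For the 2 genes called between populations the diet intervals were unequal in width. Cd83 differed by 0.07 on the log2 scale in CD45hi cells (95% interval -0.42 to 0.56) and by 0.13 in CD45lo cells (-0.33 to 0.58). Cd209a differed by -0.16 (-1.17 to 0.85) and -0.19 (-1.15 to 0.77), wider intervals that hold 0 and changes in either direction. Xcr1 had a log2 difference of 1.32 (SE 0.690, FDR 0.333) in CD45hi cells, and of -0.24 without WD-fed replicate 1. Zbtb46 had -1.54 (SE 1.13, FDR 0.509), Itgae -1.47 (SE 1.43, FDR 0.638), Batf3 -0.63 (SE 0.602, FDR 0.628), Flt3 -0.48 (SE 0.458, FDR 0.628) and Clec9a -0.14 (SE 1.44, FDR 0.977). Without WD-fed CD45hi replicate 1 Itgae was called lower in WD-fed mice (FDR 0.0439), with its 2 remaining WD libraries at 0.

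The interaction of diet and CD45 level, which tests whether the difference between populations changed with diet, called 0 of 9 genes, and 0.00668% of all tested genes, which is 1 gene. It was largest for Itgae (-1.80 on the log2 scale, SE 1.89, FDR 0.808) and Xcr1 (1.51, SE 0.945, FDR 0.636), and was 0.03 (SE 0.656) for Cd209a and -0.06 (SE 0.317) for Cd83. Without WD-fed CD45hi replicate 1, a library that lay apart, the interaction was -10.13 for Itgae (FDR 0.151) and -0.05 for Xcr1. The remaining WD-fed CD45hi libraries had no Itgae counts. The coefficient of variation of cpm over the 4 CD-fed CD45hi libraries was 8.52% for Irf4, 24.6% for Cd209a and 30% for Cd83, and 82.8% for Zbtb46, 96.1% for Clec9a and 104% for Itgae.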

How the data were processed

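Per the labels and the study's methods, poly(A) RNA of sorted cells was sequenced as paired 75-base reads, and the authors aligned reads to mm10 and deposited RSEM (version 1.2.12) expected counts and TPM per gene and library; strandedness and annotation release are not given in the sources used here. Expected counts were rounded, scaled by TMM and fitted in edgeR 4.0.16 (R 4.3.3; earlier quasi-likelihood form) with 4 groups and no replicate block. Genes needed 1 cpm in 2 libraries. Populations were tested with glmTreat at 1.5-fold and diets with glmQLFTest, each with Benjamini-Hochberg FDR below 0.05. DESeq2 1.42.0 and other settings were alternatives. The deposited TPM served only to compare genes. Scripts were tested on simulated data. The 9 genes and all lists were chosen with earlier results of these data known. All 9 are described; from other lists, up to 4 called genes of highest mean cpm were named, otherwise the 2 highest, and others (Irf8, Ccr7, Irf1, Spi1, Cd209b among them) were added after values were seen. Likeness to Flt3 was ranked by Pearson r. A value of 3 counts was the floor. Replicates with the same number did not deviate together, so none were paired, although this cannot show whether they came from the same mouse. Results of a few list genes are not reported here.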

Additional observations from a re-analysis of the deposited data

Results flagged for a closer look

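Irf4 in CD-fed CD45lo replicate 2, at 18.3 cpm, stood apart from the other 3 libraries of its group, which had 24.7 to 25.4 cpm. It was the only such case among 27 groups of 4 libraries examined for the 9 genes, and chance alone marks about 1 group in 20.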

How the results depend on the processing

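The calls of Cd209a and Cd83 on both diets held in every alternative and without any single library. In CD-fed mice 6 of the 9 genes were called between populations with DESeq2, which called 1784 of all 14967 tested genes there. The newer edgeR quasi-likelihood method called 4 of the 9, and its count over all genes for that comparison is not reported here. The main fit called 2 of the 9 and 595 of all genes. Between diets in CD45hi cells 1 was called with DESeq2 (Irf4) and 1 (Itgae) without both libraries that lay apart, an alternative added after seeing the data; leaving out single libraries gave 0 to 1, the 1 being Itgae without WD-fed CD45hi replicate 1. Libraries with the same number in their titles did not deviate together (correlation of deviations -0.022 to 0.069 over 7 pairs). This cannot show whether they came from the same mouse. The number that opens each file name, read as an animal number, gave 7 pairs with correlations of 0 to 0.069. The replicate block by title gave 2 called members on each diet, as did the replicate block by file name. DESeq2 called 1784, 2296 and 1003 of all genes for CD45 level in CD-fed and WD-fed mice and for diet in CD45hi cells, against 595, 775 and 38. The replicate block by file name called 353 for CD45 level in WD-fed mice. For diet in CD45hi cells the replicate block by title called 2, the fold limit of 1.5 within the test 1 and a fit of only the compared groups 0, and the newer edgeR method called 252. This count ranged from 1 (without WD-fed CD45lo replicate 2) to 286 (without WD-fed CD45hi replicate 2) when single libraries were left out. Some fitted differences that were not called changed sign. Under the replicate block by title Itgae had -0.79 between populations in CD-fed mice and -0.49 between diets in CD45lo cells, and Zbtb46 -0.05 in WD-fed mice; by file name they had -0.54 (Itgae, CD-fed) and -0.32 (Zbtb46, WD-fed). Between populations, leaving out single libraries gave -0.64 to 0.58 for Itgae (CD-fed), -0.05 to 1.36 for Zbtb46 and -0.06 to 0.46 for Batf3 (both WD-fed). Between diets in CD45hi cells it gave -0.06 to 0.28 for Cd83, -1.73 to 0.76 for Clec9a, -0.24 to 1.81 for Xcr1 and -0.65 to 0.04 for Cd209a. In CD45lo cells it gave -0.55 to 0.26 for Cd209a, -0.57 to 0.99 for Clec9a, -0.38 to 0.61 for Itgae and -0.01 to 0.31 for Flt3. Without both libraries that lay apart Xcr1 had -0.32 between diets in CD45hi cells. TPM, which lacks the TMM scaling, moved the median log2 ratio of all genes between populations from 0.03 to -0.33 (CD-fed) and from 0 to -0.44 (WD-fed). With TPM the log2 ratio of summed levels changed from positive to negative for several lists. In WD-fed mice it was -0.44 for cDC1 genes, -0.28 for mature dendritic cell genes, -0.31 for the BATF, IRF and ZBTB relatives and -0.18 for sort markers. In CD-fed mice it was -0.16 for cDC1 genes, -0.02 for other brain cell markers and -0.26 for sort markers. Lineage regulators in WD-fed mice had near-equal mean sums in cpm (6610 in CD45hi, 6600 in CD45lo cells) and a ratio of -0.45 with TPM. The causes were not tested. Clec9a, Itgae and Zbtb46 had libraries at 0, where 3 counts are up to 0.282 cpm.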
